A study of Mus musculus with 20 samples.

Results

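The DREAM complex takes its name from its parts, which are DP, the RB-like pocket proteins, E2F and the MuvB core. The 10 genes described here encode these parts. They were taken as the complex's known subunits, with earlier results of these data in view, and all 10 were among the 48795 genes of the deposited table. Lin9, Lin37, Lin52, Lin54 and Rbbp4 encode the MuvB core, Rbl1 and Rbl2 encode the pocket proteins p107 and p130, and E2f4, E2f5 and Tfdp1 encode the repressor E2Fs and their DP1 partner. All 10 were also among the 15304 genes kept for testing, those whose normalized count averaged 10 or more.

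Whole hearts of mouse embryos at E13.5 were used for mRNA sequencing, 1 embryo per library. Of the 20 hearts, 10 were WT, 5 were Dp1Tyb and 5 were Dp1TybDyrk1a+/+/-, and all mice were on a C57BL/6J background. Dp1Tyb mice carry an extra copy of the stretch of chromosome 16 between Lipi and Zbtb21, so that each gene within it, Dyrk1a included, is present in 3 copies. Dp1TybDyrk1a+/+/- mice carry the same duplication together with the Dyrk1a tm1Mla deletion allele on the same chromosome, so that 2 functional copies of Dyrk1a remain while the other duplicated genes stay at 3 copies. These mice descended from 1 pup in which a crossover had joined both alleles, and were kept as a separate strain with WT littermates of its own. The labels do not say which WT heart came from which strain or litter, so the comparisons with WT used all 10. In each strain the change is present in every cell from conception. The comparison asked whether genes of the DREAM complex differed with 3 copies of the duplicated genes, and whether they differed with 3 against 2 functional copies of Dyrk1a. The groups of the second question also came from separate strains, so Dyrk1a copies and strain or litter cannot be told apart there.

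In quiescent and early G1 cells the DREAM complex sits on the promoters of cell cycle genes and keeps them silent. The pocket protein joins E2F and DP to the MuvB core, and phosphorylation of the MuvB subunit LIN52 by the kinase DYRK1A promotes this joining. When cells enter the cycle, cyclin-dependent kinases phosphorylate the pocket proteins, which leave, and the MuvB core then binds the activators B-MYB (Mybl2) and FOXM1 to switch on genes of G2 and mitosis. E2F and DP reach G1/S genes through E2F sites, and LIN54 reaches G2/M genes through a short element called CHR. The assembly of the complex and its phosphorylation are changes of protein, which RNA levels do not measure.

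None of the 10 genes lies on the duplicated chromosome 16. In GRCm38.p6, Lin9 lies at chr1:180641150-180690687, Lin37 at chr7:30555441-30559721, Lin52 at chr12:84451508-84531533, Lin54 at chr5:100442033-100500639 and Rbbp4 at chr4:129307100-129335370. Rbl1 lies at chr2:157145893-157204534 and E2f5 at chr3:14578602-14606309. Rbl2 at chr8:91070057-91123844, E2f4 at chr8:105297663-105305370 and Tfdp1 at chr8:13338725-13378448 share chromosome 8.

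Some of these genes carry at their own start the words through which the complex reads its targets. The 250 bases before the start were searched in RefSeq promoters of GRCm38.p6, which matched 7 of the 10 genes. Lin9, E2f4 and E2f5 had no entry. The E2F site was searched as TTTGGCGC, TTTCCCGC, TTTGCCGC or TTTCGCGC and the CHR as TTTGAA or TTCGAA, on both strands, and no word of one motif lies within a word of the other. An E2F word was found before Rbl1, Lin52 and Tfdp1, 3 of the 7 genes, and before 2.2% of all 26994 genes with a promoter. A CHR word was found before Lin54, Lin37 and Rbl2, also 3 of 7, and before 19.5% of all genes. A match of these letters is a description and not evidence that a factor binds there. The stretches below, read 5′ to 3′ along each gene's own strand with the word in capitals, are shown because Rbl1 and Lin54 were the members past the threshold and LIN52 is the subunit that DYRK1A phosphorylates. They lie at chr2:157204535-157204654 (minus strand), chr5:100498718-100498747 (minus strand) and chr12:84451470-84451499 (plus strand).
Rbl1: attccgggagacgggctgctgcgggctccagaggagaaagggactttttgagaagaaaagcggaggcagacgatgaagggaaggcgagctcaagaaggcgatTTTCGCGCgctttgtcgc
Lin54: cccctgagtgcgTTTGAAggttggcggggc
Lin52: cggatcctcgcTTTCCCGCcgacggttggt
The E2F word of Rbl1 lies 18 to 11 bases before the start and that of Lin52 lies 27 to 20 bases before it. The CHR word of Lin54 lies 162 to 157 bases before the second of its 2 annotated starts. The same E2F word as in Rbl1, read from the other strand, lies 43 to 36 bases before a start of Tfdp1, at chr8:13338697-13338726.
Tfdp1: gggcgccgaagGCGCGAAAaggcgcgcagg
Among 31 G1/S target genes with a promoter 9 held an E2F word, and among 41 G2/M target genes 14 held a CHR word.

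Values are log2 normalized counts as the authors deposited them. Sequencing depth is unknown because the table gives no read totals, so only the spread among hearts sets the precision. The labels tie 1 library to each heart, and the P-values measure the spread between these hearts. Of 190 pairs of libraries none was a duplicate, since the smallest median difference between 2 hearts was 0.0358. The libraries of WT replicate 6 and Dp1TybDyrk1a+/+/- replicate 2 stood apart. Their median deviation from each gene's median over the hearts of all genotypes was 1.76 and 2.98 times that of the typical heart. Differences between genotypes are part of this deviation. Results are also given without these 2 libraries, a choice made after the data were seen. The library names give sequencing lanes 3, 6 and 7, which held 4, 4 and 2 WT hearts, 2, 2 and 1 Dp1Tyb hearts and 1, 1 and 3 Dp1TybDyrk1a+/+/- hearts. Dyrk1a ranged from 11.28 to 11.43 in WT, 11.65 to 11.75 in Dp1Tyb and 11.70 to 11.85 in Dp1TybDyrk1a+/+/- hearts. It was thus raised in both duplication groups, and this value for the whole gene, which also counts reads from the deletion allele, does not check the number of functional copies. Cardiomyocyte markers such as Myh6 and Actc1 were high in every heart, and the 7 markers of other tissues were low. Of these, Sftpc and Nkx2-1 (lung), Myod1 and Myog (skeletal muscle), Alb and Afp (liver) and Foxn1 (thymus), the log2 value was at most 2.12 for Sftpc, Myod1 and Foxn1, which were not tested. It ran from 3.60 to 5.13 over the hearts for the other 4, which passed the filter. Of 30 marker genes of heart and neighbouring tissues 27 were tested, and 0 were past the threshold of limma in any comparison. An unadjusted P-value under 0.05 was found for 2 in Dp1Tyb versus WT and 2 in Dp1TybDyrk1a+/+/- versus WT. Of all 15304 genes 2382 and 1475 had one there. Between Dp1Tyb and Dp1TybDyrk1a+/+/- hearts 1 marker had one.

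In Dp1Tyb compared to WT hearts, 2 of the 10 subunit genes fell, namely Rbl1 and Lin54 (limma, Benjamini-Hochberg adjusted P-value under 0.05 over all 15304 genes). Over all genes 3.08% differed in either direction and 1.27% were lower in Dp1Tyb hearts. The median log2 fold change of the 10 genes was -0.03, against -0.0019 over all genes, and 8 of the 10 lay below 0. In Dp1TybDyrk1a+/+/- compared to WT hearts 0 of the 10 genes passed the threshold, against 0.712% of all genes. An unadjusted limma P-value under 0.05 was found for 0 of the 10 genes and for 1475 of all 15304. The median log2 fold change of the 10 genes was 0.0006, and 5 of them lay below 0. In Dp1Tyb compared to Dp1TybDyrk1a+/+/- hearts Rbl1 fell, 1 of the 10, where 1.16% of all genes differed and 0.738% were lower in Dp1Tyb hearts. Both comparisons of Dp1Tyb use the same 5 Dp1Tyb hearts, and both comparisons with WT use the same WT hearts. Without the libraries that stood apart the members past the threshold numbered 2, 0 and 1 again, and the shares of all genes were 7.7%, 1.39% and 3.96%.

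**Figure D1:**
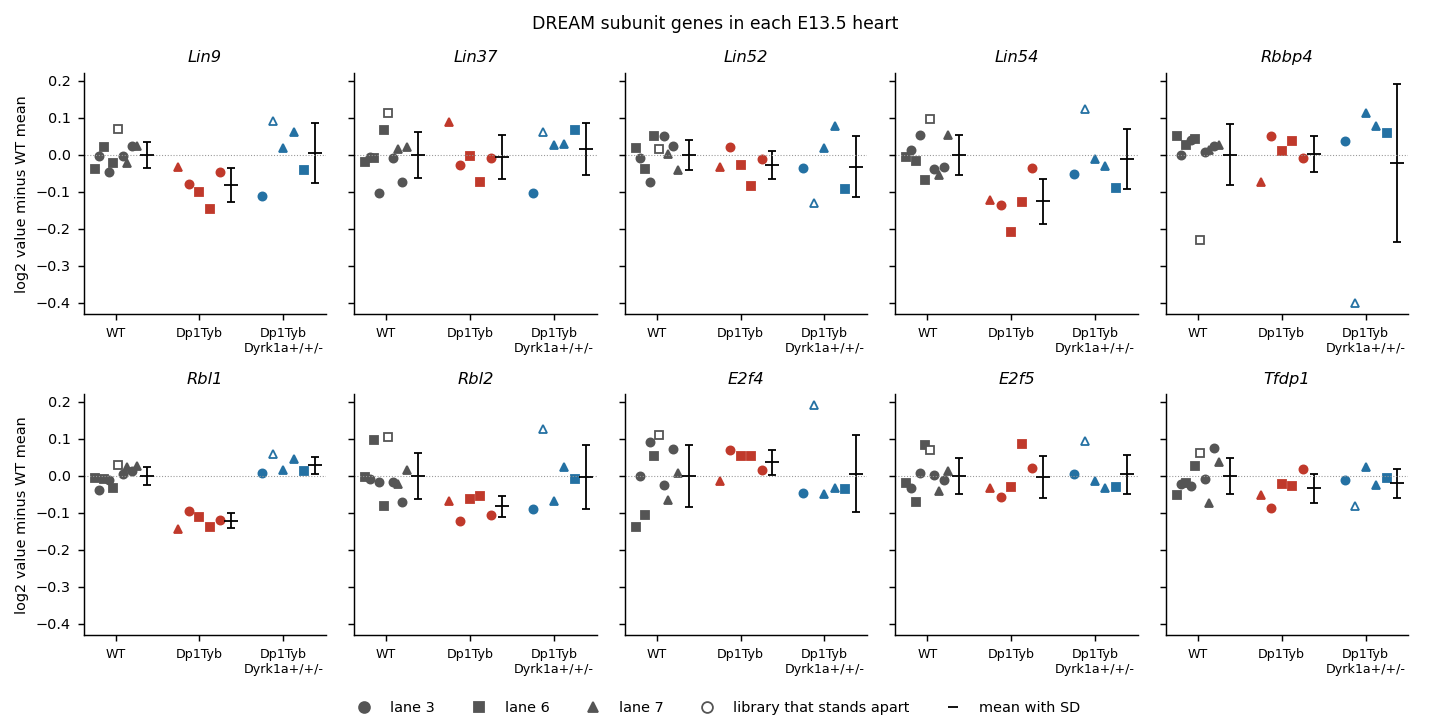
Each panel is 1 subunit gene and each point 1 heart, with the log2 value minus the WT mean on the vertical axis, the genotype on the horizontal axis and the lane as the symbol. Open points are the 2 libraries that stood apart and the black bar is the mean with SD. All 5 Dp1Tyb hearts lie below every other heart for Rbl1, and the open points lie lowest for Rbbp4.

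**Figure D2:**
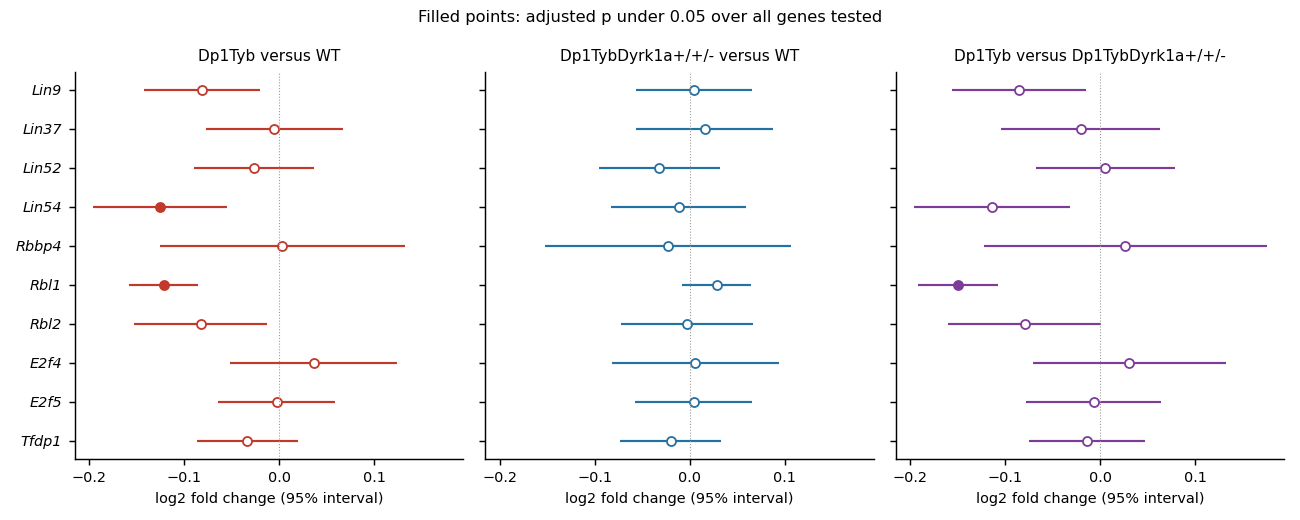
Log2 fold change of each subunit gene with its 95% confidence interval from limma in the 3 comparisons, with filled points for an adjusted P-value under 0.05. The interval of Rbl1 lies below 0 in both comparisons of Dp1Tyb hearts and spans 0 in Dp1TybDyrk1a+/+/- versus WT hearts.

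Rbl1 encodes p107, a pocket protein that is abundant in cycling cells and whose gene is itself an E2F target. In WT hearts its log2 value ran from 10.14 through a median of 10.18 to 10.21. It ran from 10.14 to 10.17 in WT replicates 1 to 5 and from 10.18 to 10.21 in WT replicates 6 to 10. In the 5 Dp1Tyb hearts it was 10.03, 10.04, 10.06, 10.06 and 10.08, so that every Dp1Tyb heart lay below all 10 WT hearts. In the Dp1TybDyrk1a+/+/- hearts it was 10.18, 10.19, 10.19, 10.22 and 10.24, within or just above the WT range. Among the 10 subunit genes only Rbl1 had Dp1Tyb hearts that overlapped neither those of WT nor those of Dp1TybDyrk1a+/+/-. Of all genes, 2.63% had no overlap between Dp1Tyb and WT hearts and 5.65% had none between Dp1Tyb and Dp1TybDyrk1a+/+/- hearts. Dp1TybDyrk1a+/+/- and WT hearts overlapped in each of the 10 subunit genes, whereas 0.64% of all genes had no such overlap.

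Rbl1 in Dp1Tyb hearts stood at 0.919 of its WT level, a log2 fold change of -0.12 ± 0.0175 (SE, 95% confidence interval -0.16 to -0.09, limma adjusted P = 0.000158). The exact two-sided permutation test gave p = 0.000666, the smallest that 3003 regroupings allow. Against Dp1TybDyrk1a+/+/- hearts Rbl1 was 0.901 times as abundant, a log2 fold change of -0.15 ± 0.0202 (SE, 95% confidence interval -0.19 to -0.11, limma adjusted P = 0.00173). The exact test there gave p = 0.00794, the smallest that 252 regroupings allow. By P-value Rbl1 ranked 72 among the 15304 genes in the first of these comparisons and 2 in the second. With only the 10 hearts of both genotypes in the second fit, the log2 fold change was the same and the adjusted P-value was 0.0963.

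Rbl1 did not pass the threshold in Dp1TybDyrk1a+/+/- compared to WT hearts, with a log2 fold change of 0.03 (95% confidence interval -0.01 to 0.06, limma adjusted P = 0.619, exact permutation p = 0.0473 before any adjustment). Within lanes 3, 6 and 7 the difference of Dp1Tyb from WT hearts was -0.10, -0.12 and -0.17, and that from Dp1TybDyrk1a+/+/- hearts -0.11, -0.14 and -0.18. The smaller groups had 1 heart in some of these lanes. Without the libraries that stood apart the log2 fold changes were -0.12 and -0.14, with adjusted P-values of 4.43e-05 and 0.00066. In RNA of whole hearts, fewer cells that express a gene and less of its RNA per cell cannot be told apart. Of the 10 subunit genes Rbl1 varied least between hearts of 1 genotype, with a pooled SD of 0.0231, against a median of 0.0592 over all genes. Its exons share 329 bases with those of Gm14277 on the opposite strand, which had a mean log2 value of 0.89.

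Rbl2 encodes p130, the pocket protein that predominates in resting cells. Its log2 value in WT hearts ran from 9.90 through a median of 9.97 to 10.09. It was 9.86, 9.88, 9.91, 9.92 and 9.93 in Dp1Tyb hearts, and 9.89, 9.91, 9.97, 10.01 and 10.11 in Dp1TybDyrk1a+/+/- hearts. The highest Dp1Tyb heart lay below 8 of the 10 WT hearts, yet the groups overlapped. The log2 fold change in Dp1Tyb compared to WT hearts was -0.08 (95% confidence interval -0.15 to -0.01) and missed the threshold over all genes (limma adjusted P = 0.224), while the exact permutation test of this gene alone gave p = 0.00666. Against Dp1TybDyrk1a+/+/- hearts it was -0.08 (limma adjusted P = 0.275), and Dp1TybDyrk1a+/+/- differed from WT hearts by -0.0029 (95% confidence interval -0.07 to 0.07). The highest Dp1TybDyrk1a+/+/- heart was the library that stood apart, and without both such libraries the Dp1Tyb differences were -0.07 and -0.05. Rbl2 shares 1589 exonic bases with Aktip on the opposite strand, and the strand setting of the counting is not given in the sources used here, so reads of this stretch may come from either gene.

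Lin54 encodes the subunit that binds the CHR element. Its log2 value in WT hearts ran from 9.41 through a median of 9.47 to 9.58, and in Dp1Tyb hearts it was 9.27, 9.34, 9.35, 9.36 and 9.45. Every WT heart exceeded 4 of the 5 Dp1Tyb hearts. In Dp1TybDyrk1a+/+/- hearts it was 9.39, 9.43, 9.45, 9.47 and 9.60, where the highest was again the library that stood apart.

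Lin54 in Dp1Tyb hearts stood at 0.916 of its WT level, a log2 fold change of -0.13 ± 0.034 (SE, 95% confidence interval -0.20 to -0.06, limma adjusted P = 0.0455, exact permutation p = 0.00266). This was close to the threshold, and the call was lost when any 1 of 14 hearts was left out, namely WT replicates 1, 2, 3, 4, 6, 7 and 10, Dp1Tyb replicates 1, 2, 3 and 4 and Dp1TybDyrk1a+/+/- replicates 1, 3 and 4. Over all 20 such fits the log2 fold change stayed between -0.15 and -0.11, with adjusted P-values from 0.0109 to 0.169. Without both libraries that stood apart it was -0.12 with an adjusted P-value of 0.0102. Within lanes 3, 6 and 7 the difference was -0.08, -0.17 and -0.12. Against Dp1TybDyrk1a+/+/- hearts the log2 fold change was -0.11 and missed the threshold (limma adjusted P = 0.131), and within the lanes it was -0.03, -0.08 and -0.15. Dp1TybDyrk1a+/+/- and WT hearts differed by -0.01 (95% confidence interval -0.08 to 0.06, limma adjusted P = 0.926).

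Lin9 encodes the subunit that, with LIN52, holds B-MYB on the MuvB core. In WT hearts the log2 value had a lowest of 8.66, a median of 8.70 and a highest of 8.77. It was 8.56, 8.61, 8.63, 8.66 and 8.67 in Dp1Tyb hearts and 8.60, 8.67, 8.72, 8.77 and 8.80 in Dp1TybDyrk1a+/+/- hearts. Every WT heart exceeded 3 of the 5 Dp1Tyb hearts. The log2 fold change of -0.08 (95% confidence interval -0.14 to -0.02) missed the threshold over all genes (limma adjusted P = 0.157), and the exact permutation test of this gene alone gave p = 0.00333. It passed with the hearts weighted by quality (adjusted P = 0.0395). Against Dp1TybDyrk1a+/+/- hearts it was -0.09 (limma adjusted P = 0.186), and within lane 3 this difference was 0.05, opposite to the -0.08 and -0.09 of lanes 6 and 7.

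Lin52 encodes the small subunit that DYRK1A phosphorylates. Its log2 value ran from 7.57 through 7.65 to 7.69 in WT hearts. It was 7.56, 7.61, 7.61, 7.63 and 7.66 in Dp1Tyb hearts and 7.51, 7.55, 7.61, 7.66 and 7.72 in Dp1TybDyrk1a+/+/- hearts. The 3 groups overlapped and no comparison passed the threshold, with log2 fold changes of -0.03, -0.03 and 0.01 and limma adjusted P-values of 0.746, 0.75 and 0.953. The 95% confidence interval for Dp1Tyb over WT hearts ran from 0.939 to 1.026 in fold. The mean normalized count was 197.7 for Lin52 and 1139.4 for Rbl1. Fold changes of weaker genes are probably understated in the deposited values, so the interval does not exclude a change as large as that of Rbl1. Lin52 shares 132 exonic bases with Aldh6a1 on the opposite strand, whose mean log2 value of 10.03 was above the 7.63 of Lin52.

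Lin37 encodes a subunit that the complex needs for repression. WT hearts ranged in log2 value from 7.07 to 7.28 with a median of 7.16. It was 7.09, 7.14, 7.16, 7.16 and 7.26 in Dp1Tyb hearts and 7.06, 7.19, 7.20, 7.23 and 7.23 in Dp1TybDyrk1a+/+/- hearts. The log2 fold changes of -0.0052, 0.02 and -0.02 did not pass the threshold (limma adjusted P = 0.964, 0.898 and 0.805). Lin37 shares 173 exonic bases with Hspb6 on the opposite strand, whose mean log2 value of 8.85 was above the 7.17 of Lin37.

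Rbbp4 encodes a histone-binding protein that also serves chromatin complexes other than DREAM. Its log2 value ran from 12.24 through 12.49 to 12.52 in WT hearts. It was 12.39, 12.46, 12.48, 12.50 and 12.52 in Dp1Tyb hearts and 12.07, 12.50, 12.53, 12.55 and 12.58 in Dp1TybDyrk1a+/+/- hearts. The lowest WT and the lowest Dp1TybDyrk1a+/+/- heart were the libraries that stood apart. The pooled SD was 0.122 with these libraries and 0.0317 without them, the greatest dependence among the 10 genes. The log2 fold changes of 0.0031, -0.02 and 0.03 became -0.02, 0.05 and -0.07 without them, so that each of the 3 changed direction, and none passed the threshold either way (limma adjusted P of 0.988, 0.919 and 0.87 with them and 0.552, 0.282 and 0.097 without). Rbbp4 shares 2116 exonic bases with Sync on the opposite strand, which had a mean log2 value of 5.46.

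E2f4 encodes the repressor E2F that binds p107 and p130. WT hearts ranged in log2 value from 9.28 to 9.52 with a median of 9.42. It was 9.40, 9.43, 9.47, 9.47 and 9.48 in Dp1Tyb hearts and 9.36, 9.37, 9.38, 9.38 and 9.60 in Dp1TybDyrk1a+/+/- hearts. The value of 9.60 was that of the library that stood apart, above every WT heart, and the other 4 hearts lay within the WT range. The log2 fold change in Dp1Tyb compared to WT hearts was 0.04 (95% confidence interval -0.05 to 0.12, limma adjusted P = 0.754). Dp1TybDyrk1a+/+/- differed from WT hearts by 0.01 with this library and by -0.03 without both libraries that stood apart (limma adjusted P = 0.971 and 0.73).

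E2f5 encodes the second repressor E2F. Its log2 value ran from 7.93 through 7.99 to 8.08 in WT hearts. It was 7.94, 7.96, 7.97, 8.02 and 8.08 in Dp1Tyb hearts and ran from 7.96 through 7.98 to 8.09 in Dp1TybDyrk1a+/+/- hearts, so that the 3 groups covered nearly the same range. The log2 fold changes were -0.0028, 0.0042 and -0.0069 (limma adjusted P = 0.98, 0.97 and 0.932). The 95% confidence interval for Dp1Tyb over WT hearts was 0.956 to 1.042 in fold. E2f5 shares 1005 exonic bases with Rbis on the opposite strand, whose mean log2 value of 9.37 was above that of E2f5, so its reads cannot be told apart from those of Rbis in that stretch if the counting did not use strand.

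Tfdp1 encodes DP1, the partner with which E2F4 and E2F5 bind DNA. In WT hearts the log2 value had a lowest of 10.90, a median of 10.96 and a highest of 11.05. It was 10.88, 10.92, 10.95, 10.95 and 10.99 in Dp1Tyb hearts and 10.89, 10.95, 10.96, 10.97 and 10.99 in Dp1TybDyrk1a+/+/- hearts. The log2 fold changes were -0.03, -0.02 and -0.01 (limma adjusted P = 0.584, 0.814 and 0.825). Tfdp1 and Lin52 also have an E2F word before their start. Their 95% confidence intervals for Dp1Tyb versus WT hearts were -0.09 to 0.02 and -0.09 to 0.04 on the log2 scale. Both spanned 0, and a relation of the word to the change was not tested.

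To compare the genes with each other, normalized counts were divided by the length of their exons. Per kilobase of exon, Rbbp4 was highest in WT hearts at 447 ± 23.9 normalized counts (SD, n = 10), followed by Tfdp1 at 357 ± 12. Rbl1 at 158 ± 2.65, E2f4 at 118 ± 6.82 and Lin54 at 101 ± 3.76 came next. Rbl2 at 85.3 ± 3.67 and Lin37 at 81.5 ± 3.5 had overlapping ranges, and Rbl2 was above Lin37 in 9 of 10 WT hearts. E2f5 at 64.1 ± 2.15, Lin9 at 46.6 ± 1.13 and Lin52 at 37.5 ± 1.05 were lowest. E2f4 and Lin54 also overlapped in range, though E2f4 was higher in each of the 10 WT hearts. The pocket protein genes thus stood at unequal levels, with Rbl1 above Rbl2 in each genotype. The order was the same in Dp1TybDyrk1a+/+/- hearts, and in Dp1Tyb hearts Lin37 at 81.2 ± 3.39 and Rbl2 at 80.5 ± 1.6 (SD, n = 5) changed places within their spread. These levels depend on the exon lengths of the annotation, and no level of protein follows from them.

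**Figure D3:**
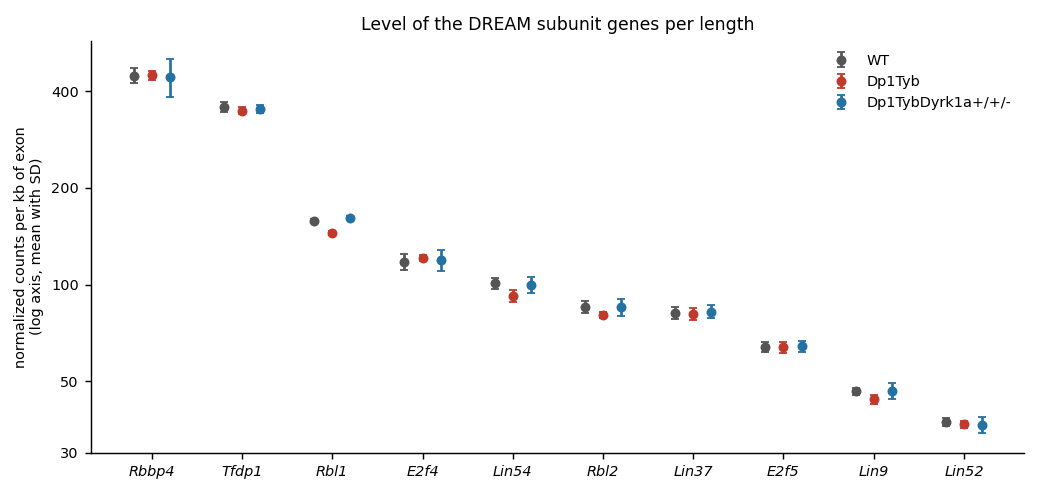
Normalized counts per kilobase of exon for each subunit gene on a log axis, with the mean and SD of the 10 WT, 5 Dp1Tyb and 5 Dp1TybDyrk1a+/+/- hearts. The levels run from 447 for Rbbp4 to 37.5 for Lin52 in WT hearts. The genotypes lie close together, with the largest relative gaps between Dp1Tyb and WT hearts in Rbl1, Lin54, Rbl2 and Lin9.

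Pairs of subunit genes were compared within genotypes, and no r over pairs of other genes was computed beside them. Over the 45 pairs of genes, Pearson's r between their deviations from the genotype mean had a median of 0.14 and ran from -0.70 to 0.65 over 20 hearts, and from -0.46 to 0.56 with a median of 0.01 over the 18 hearts without the libraries that stood apart. The tested genes most like Rbl1 over the 20 hearts were Galnt11 (r = 0.837), Gm5617 (r = 0.778) and 4732416N19Rik (r = 0.774). Over 18 hearts these genes ranked 4, 18 and 10, and those most like Rbl1 were Arv1 (r = 0.819), Mid1-ps1 (r = 0.816) and Clspn (r = 0.785). Those most like Rbl2 were Pdk2 (r = 0.893), S100a1 (r = 0.883) and AW554918 (r = 0.878), and over 18 hearts Eef1a2 (r = 0.865), Pln (r = 0.837) and Mtus1 (r = 0.829). Those most like Lin52 were Vps36 (r = 0.76), Zkscan14 (r = 0.757) and Rtel1 (r = 0.756), and over 18 hearts Zkscan14 (r = 0.764) was first. These are descriptions, since the values share their libraries and their normalization and the genes were picked as the highest of all tested.

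Of 21 genes of related factors (other E2F and DP factors, Rb1, the activating MuvB partners, DYRK kinases and the cyclins and kinases that act on pocket proteins), 1 rose and 2 fell in Dp1Tyb compared to WT hearts, and 16 lay below 0. Of all genes 3.08% differed there and 51.5% lay below 0. The 3 calls became 7 without Dp1TybDyrk1a+/+/- replicate 2, 6 without both libraries that stood apart, 8 with hearts weighted by quality and 5 with only the hearts of both genotypes. Dyrk1a, a duplicated gene, rose by a log2 fold change of 0.32 ± 0.0267 (SE, limma adjusted P = 6.22e-08). Foxm1, which drives G2/M genes with the MuvB core, fell with a log2 fold change of -0.14 ± 0.0223 (limma adjusted P = 0.00096), from 10.57 to 10.67 in WT hearts to 10.46 to 10.54 in Dp1Tyb hearts. Dyrk1b, the closest relative of Dyrk1a, fell with a log2 fold change of -0.14 ± 0.0301 (limma adjusted P = 0.0125), from 8.31 to 8.45 in WT hearts to 8.21 to 8.29 in Dp1Tyb hearts. In both genes the hearts of these groups did not overlap, as in 2.63% of all genes. The same held for E2f7, an atypical repressor E2F, which missed the threshold with all hearts (log2 fold change -0.13, limma adjusted P = 0.112). Without both libraries that stood apart E2f7 (-0.12), its close relative E2f8 (-0.11) and Ccnd3 (0.09), which encodes cyclin D3, also passed (limma adjusted P = 0.00253, 0.0254 and 0.0463). These 3 genes were singled out after their values were seen. Mybl2, which encodes B-MYB, had a log2 fold change of -0.09 and missed the threshold (limma adjusted P = 0.08), which it passed without Dp1Tyb replicate 2 (0.0414) or Dp1TybDyrk1a+/+/- replicate 2 (0.0491).

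In Dp1TybDyrk1a+/+/- compared to WT hearts Dyrk1a alone of the 21 passed the threshold, with a log2 fold change of 0.39 (limma adjusted P = 2.18e-09). Foxm1, Dyrk1b and Mybl2 had log2 fold changes of -0.04, -0.02 and -0.02 (limma adjusted P = 0.611, 0.878 and 0.875). Between Dp1Tyb and Dp1TybDyrk1a+/+/- hearts 0 of the 21 passed the threshold of limma and 10 had an unadjusted P-value under 0.05. Of all 15304 genes fewer than 2928 did, since Rbl2 ranked 2928 with an unadjusted limma P-value of 0.0527. The log2 fold changes were -0.10 for Foxm1, -0.12 for Dyrk1b and -0.08 for Mybl2 (limma adjusted P = 0.0598, 0.0824 and 0.204). Leaving out WT replicate 6 or Dp1TybDyrk1a+/+/- replicate 5 gave 2 calls each, Foxm1 among them (adjusted P = 0.0464 and 0.0491), and without both libraries that stood apart E2f8 (-0.14, adjusted P = 0.0288) and Dyrk1b (-0.13, adjusted P = 0.0437) passed. With all hearts E2f8 had a log2 fold change of -0.20, the furthest from 0 among the 21 genes, yet it missed the threshold (limma adjusted P = 0.104). Each Dp1Tyb heart lay below each Dp1TybDyrk1a+/+/- heart for E2f8, and 5.65% of all genes had no overlap between these groups.

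The genes that DREAM represses were described by 2 lists from general knowledge, 38 G1/S targets of DNA replication and repair and 48 G2/M targets of mitosis. In Dp1Tyb compared to WT hearts 6 G1/S and 14 G2/M targets fell, where 1.27% of all genes did. Of the lists 35 of 38 and 48 of 48 genes lay below 0, where 51.5% of all genes did, with median log2 fold changes of -0.07 and -0.09. The smallest P-values were those of the G2/M targets Bub1 (-0.11), a spindle checkpoint kinase, Kif11 (-0.15), a spindle motor, and Prc1 (-0.15), which bundles the midzone, and of the G1/S targets Mcm10 (-0.13) and Rrm1 (-0.11), with limma adjusted P-values of 0.00207, 0.00447, 0.00554, 0.00852 and 0.0162. Chaf1b, a G1/S target within the duplication, rose by 0.30 on the log2 scale (limma adjusted P = 9.31e-06). Without the libraries that stood apart 14 G1/S and 35 G2/M targets fell, where 571 of all 15304 genes did. Leaving out 1 heart gave 2 to 14 G1/S calls, Chaf1b included, and 7 to 29 G2/M calls, the fewest without Dp1Tyb replicate 3 and the most without Dp1TybDyrk1a+/+/- replicate 2.

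In Dp1TybDyrk1a+/+/- compared to WT hearts 0 of the 48 G2/M targets passed the threshold of limma, and of the 38 G1/S targets only Chaf1b did, which rose by 0.42 (limma adjusted P = 5.16e-08). At an unadjusted P-value under 0.05 there were 2 genes of each list, Chaf1b included, where 1475 of all 15304 genes were. Of the lists 16 and 12 genes lay below 0, against 52.6% of all genes, and the medians were 0.0051 and 0.02. Among the genes with the smallest P-values after Chaf1b were Tyms (0.05), Mad2l1 (0.08), Dlgap5 (0.06) and Birc5 (0.05), with limma adjusted P-values of 0.555, 0.396, 0.514 and 0.558.

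In Dp1Tyb compared to Dp1TybDyrk1a+/+/- hearts 6 G1/S and 12 G2/M targets fell, where 0.738% of all genes did. Of the lists 36 of 38 and 45 of 48 genes lay below 0, against 48% of all genes. The medians were -0.09 and -0.12, and among the smallest P-values were those of Bub1 (-0.15), Prc1 (-0.18), Kif11 (-0.17), Pola1 (-0.13) and Pcna (-0.13), with limma adjusted P-values of 0.00671, 0.0186, 0.0207, 0.0304 and 0.0304. These calls depended on the fit. With lane as a covariate 0 G1/S and 1 G2/M targets passed, and with only the hearts of both genotypes 0 and 0. Leaving out 1 heart gave 0 to 9 G1/S and 1 to 22 G2/M calls, with the fewest of both without Dp1Tyb replicate 3 and the most of both without WT replicate 6. Without the libraries that stood apart 14 and 22 fell, where 398 of all 15304 genes did.

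As the mean over the 37 G1/S targets with 2 copies, the log2 level ran from 10.04 to 10.12 in WT hearts and was 9.95, 9.99, 10.01, 10.02 and 10.03 in Dp1Tyb hearts, each below every WT heart. In Dp1TybDyrk1a+/+/- hearts it was 10.01, 10.04, 10.10, 10.12 and 10.12, the lowest being the library that stood apart, so that 2 of these hearts lay below every WT heart and 2 lay above every WT heart. Over the 48 G2/M targets it ran from 10.44 to 10.54 in WT hearts and was 10.35, 10.39, 10.39, 10.41 and 10.42 in Dp1Tyb hearts, each below every heart of both other groups. In Dp1TybDyrk1a+/+/- hearts it was 10.46, 10.48, 10.48, 10.54 and 10.55. The differences in these means of Dp1Tyb from WT hearts, -0.07 and -0.10, and of Rbl1, -0.12, are side by side here, and no relation between them was tested.

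**Figure D4:**
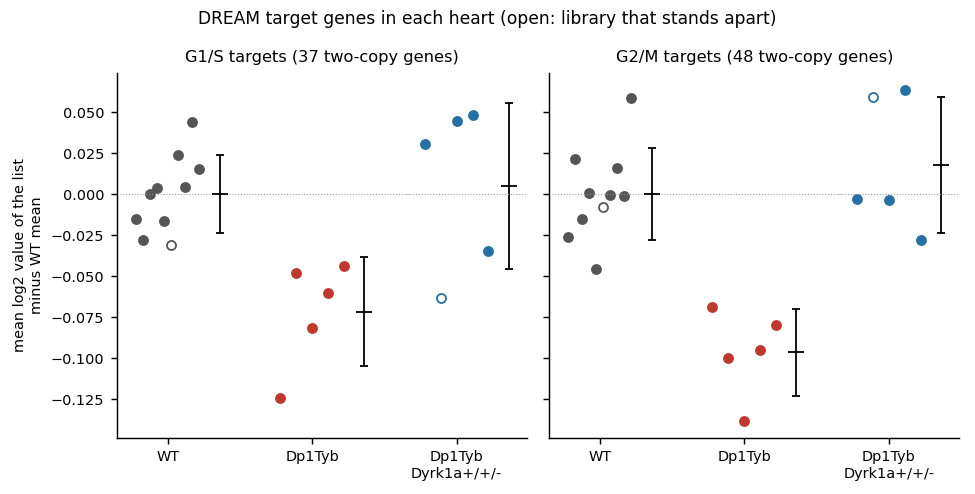
Mean log2 value of the 37 G1/S and 48 G2/M target genes with 2 copies in each heart, minus the mean of the WT hearts, by genotype, with black bars for the mean and SD and open points for the libraries that stood apart. The 5 Dp1Tyb hearts lie below all WT hearts in both lists, and the Dp1TybDyrk1a+/+/- hearts spread around the WT mean.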

How the data were processed

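Whole-heart mRNA libraries (KAPA mRNA HyperPrep, Illumina sequencing) of 20 E13.5 embryos were processed by the authors with Trimmomatic 0.36, STAR 2.5.2a and RSEM 1.2.31 on GRCm38 and normalized with DESeq2, per the submitters' processing notes. The authors deposited log2 normalized counts for 48795 Ensembl genes. The annotation release, the strand setting and the name of the log2 transformation are not given in the sources used here. The values of weakly expressed genes vary little, as after a shrinking transformation, so their fold changes are probably understated. Dyrk1a, a duplicated gene, stood at 1.25 of its WT level in Dp1Tyb hearts. Whether fold changes of stronger genes are understated too was not tested. The mean normalized counts of the 10 subunit genes ran from 144.2 to 5660.1. Columns given to no sample numbered 0.

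The authors tested counts with DESeq2. The deposited values are not counts, so limma 3.58.1 in R 4.3.3 was fitted with lmFit and a trended eBayes, using a mean for each genotype over the 20 hearts, to the 15304 genes whose normalized count averaged 10 or more, with Benjamini-Hochberg adjustment over all of them and a threshold of 0.05. Fold changes are differences of the deposited log2 values. Each subunit gene was also compared by an exact two-sided permutation test of the hearts. The fit was tested on simulated data for 15304 genes, where it called 184 of 200 genes that had been shifted by 0.3 between Dp1Tyb and WT, and 8 others. This shift is larger than the change of any subunit gene, so the test does not show how often changes of their size are found. GENCODE M39 named 44565 genes, the paper's tables named 16 more, Lin54 among them, and 4214 stayed unnamed. Exon lengths and overlaps came from the same release and positions and promoters from RefSeq for GRCm38.p6. The genes named were all 10 subunits, the related factors past the threshold with Dyrk1a, Mybl2 and Foxm1, the 3 genes of each target list with the smallest P-value in each comparison, and for Rbl1, Rbl2 and Lin52 the 3 genes with the highest r (for 18 hearts added later). The values of 1 target gene that this rule names are left out. The members and all gene lists were chosen with earlier results of these data known, so they are not independent evidence. Alternatives were other filters, scalings, variance models, heart weights, lane as a covariate, only 2 genotypes per fit and leaving out hearts. Python 3.11.15, numpy 2.4.6, pandas 2.3.3, scipy 1.17.1 and matplotlib 3.10.9 did the other steps.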

Additional observations from a re-analysis of the deposited data

Results flagged for a closer look

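Each genotype was searched for a heart whose gap to its nearest neighbour was large for the range of the group (Dixon's test at 95%) in each of the 10 subunit genes, 30 groups in all. Chance gives such a heart in about 1 of 20 groups, and 4 were found. In Rbbp4 they were WT replicate 6 at a log2 value of 12.24, where the other WT hearts ran from 12.47 to 12.52, and Dp1TybDyrk1a+/+/- replicate 2 at 12.07, where the others ran from 12.50 to 12.58. In E2f4 it was Dp1TybDyrk1a+/+/- replicate 2 at 9.60, where the others ran from 9.36 to 9.38. These are the 2 libraries that stood apart over all genes. In Lin37 it was Dp1TybDyrk1a+/+/- replicate 1 at 7.06, where the others ran from 7.19 to 7.23, and this library did not stand apart. The part of RNA quality or of the dissection in these values was not tested.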

How the results depend on the processing

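Over 30 alternatives, the log2 fold change of Rbl1 kept its direction in each comparison. It passed the threshold in 30 of 30 for Dp1Tyb versus WT and in 29 of 30 for Dp1Tyb versus Dp1TybDyrk1a+/+/-. Of the 900 values of all 10 genes, 871 kept their call, and any sign that changed among these moved by less than 1 SE. Of the others 19 lost the call, 2 gained it and 8 changed sign by 1 SE or more without passing the threshold on either side. In Dp1Tyb versus WT the subunit genes called fell from 2 to 1 (Rbl1 alone) with no filter on low values, with each heart centred on its median, with quantile normalization and with lane as a covariate, and ran from 1 to 2 with each heart left out, while weights by quality gave 3 (Lin9 added). In Dp1Tyb versus Dp1TybDyrk1a+/+/- they were 2 with hearts weighted by quality (Lin54 added, adjusted P = 0.0485) and 0 with only the hearts of the 2 genotypes, a fit with fewer hearts. In Dp1TybDyrk1a+/+/- versus WT they were 0 in every alternative.

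Of all genes, 471 were called in Dp1Tyb versus WT. This was 1422 with hearts weighted by quality, 779 with only the 2 genotypes, 1178 without the libraries that stood apart and 266 to 959 with each heart left out, the highest without Dp1TybDyrk1a+/+/- replicate 2. The 109 of Dp1TybDyrk1a+/+/- versus WT became 341 with weights and 212 without the libraries that stood apart. The 178 of Dp1Tyb versus Dp1TybDyrk1a+/+/- became 76 with no filter, 273 with only genes of a mean normalized count above 100, 1247 with weights, 29 with lane as a covariate, 3 with only the 2 genotypes, 606 without the libraries that stood apart and 30 to 404 with each heart left out, the lowest without Dp1Tyb replicate 3. There 65 rose and 113 fell, and 48 rose and 177 fell with each heart centred on its median. The cause of these shifts was not tested. No paired analysis was possible because the labels give no replicate numbers that genotypes share. Depth is unknown, so it sets no limit that could be computed here.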
